A study of Mus musculus with 8 samples.

Results

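Hmgcs1, Idi1, Fdft1, Sqle, Lss, Cyp51, Ebp and Dhcr7 encode 8 enzymes of cholesterol synthesis, and their transcripts were measured in mouse adipocytes overexpressing the microRNA miR-690 (miR-690oe) and in control adipocytes. The 8 genes were chosen by name, and all 8 were found among the 10663 genes of the deposited table, as the entries HMGCS1, IDI1, FDFT1, SQLE, LSS, CYP51, EBP and DHCR7. The cells were 3T3-L1, a mouse fibroblast line that turns into fat cells in culture, at passage 2 to 3, with 4 miR-690oe and 4 control libraries of total RNA. The treatment text of the labels is the same for all 8 libraries, with miR-690 mimic at 5 pM for the control libraries too, and the sources used here do not tell how the control cells were treated. Whether the replicates were cultured separately is not in the labels, so a p-value here reflects the spread between libraries alone, and that spread may be technical. The level of the microRNA itself was not analysed here.

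Cells build cholesterol from acetyl-CoA. The early steps make mevalonate and turn it into isoprenoid units, squalene synthase joins these into squalene, squalene is oxidised and folded into the first sterol, lanosterol, and a chain of further enzymes trims lanosterol to cholesterol. The genes are controlled together by SREBP-2, a transcription factor that is freed from the endoplasmic reticulum when membrane cholesterol is low. Fat cells store much of the body's cholesterol in their lipid droplets and membranes but make little of it compared with liver.

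A microRNA acts mainly by pairing its seed, bases 2 to 8, with a transcript's 3' UTR, so the microRNA and the matches in the transcripts are shown, with the seed and the bases that pair with it in capitals. The labels name miR-690-5p, and the RefSeq table (GRCm38.p6) holds a mature mmu-miR-690 at chr16:28599940-28599961 on the minus strand. The 7 bases paired to its seed, TAGCCTT, occurred in 1238 of 10368 annotated 3' UTRs (11.9%), and in those of 2 of the 8 enzymes, Fdft1 and Dhcr7. The match in Fdft1 lay at position 1205 of a 3' UTR of 1600 nt (chr14:63145539-63145545, minus strand, mm10) and that in Dhcr7 at position 848 of 892 nt (chr7:143848365-143848371, plus strand). Nadk, the gene of an NAD kinase that published work names as a miR-690 target, is shown beside them, with a match at position 90 of 1526 nt (chr4:155589565-155589571, plus strand). Lbr and Sc5d of the pathway and the preadipocyte marker Pdgfra also held a match, which is not shown.
mmu-miR-690: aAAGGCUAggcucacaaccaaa
Fdft1: caagtctatgTAGCCTTgaatttaatg
Dhcr7: aggcttatctTAGCCTTgcaggcagtt
Nadk: ctggctgaccTAGCCTTgacaaaccac

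The 8 enzymes did not move as one. Hmgcs1, Idi1 and Lss rose in miR-690oe adipocytes, Fdft1 and Ebp fell, and Sqle, Cyp51 and Dhcr7 did not pass the threshold, a limma adjusted p of 0.05 with Benjamini-Hochberg adjustment over all 10658 genes tested. Calls were common in this comparison: 26.0% of all genes were called higher, 17.4% lower and 43.4% in either direction, so 5 of 8 is to be read against that share. Of all calls 59.9% were higher, a share that was 46.4% after quantile normalization, 52.6% with median-of-ratios scaling and 45.0% once the trend over length and GC content, described further on, was removed. The groups did not overlap for 4 of the 8 enzymes, against 38.3% of all genes. The median log2 fold change of the 8, miR-690oe over control on the log2(CPM + 0.5) scale, was 0.03, and that of all genes 0.02. Levels are given in CPM, reads per 1000000 reads over the listed genes. In bulk RNA a lower level can mean fewer cells of a type or less RNA per cell, and these cannot be told apart.

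**Figure D1:**
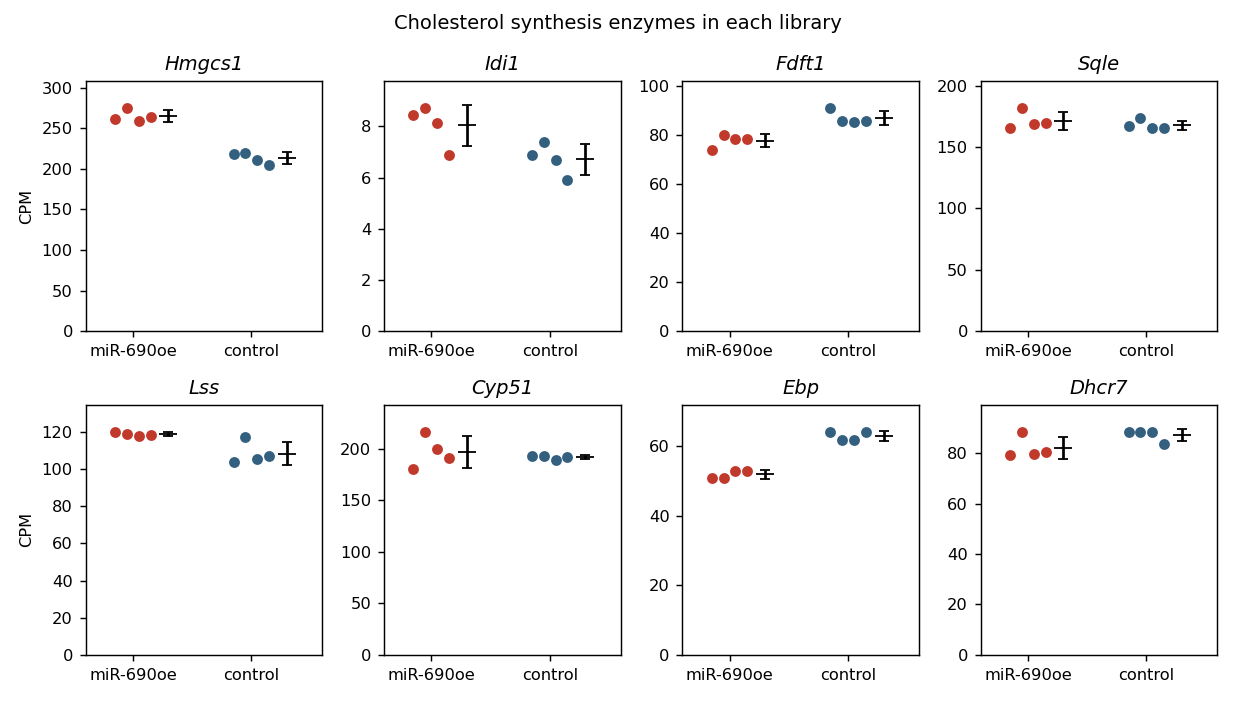
Level of each of the 8 enzyme genes in CPM (y axis, from 0) in the 4 miR-690oe libraries (red) and the 4 control libraries (blue), with mean and SD in black. Hmgcs1 lies wholly above control and Fdft1 and Ebp wholly below it, while Sqle, Cyp51, Dhcr7 and Idi1 overlap.

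The fold changes of the whole table followed transcript length, which bears on how each enzyme is read. With all genes put into 10 classes of equal size by transcript length, in the class of the shortest (174 to 1263 nt) the median log2 fold change was -0.19, with 0.94% of genes called higher and 59.5% lower. In the class of the longest (6590 to 123179 nt) it was 0.33, with 84.1% higher and 0.847% lower. Every enzyme is therefore given as measured and also adjusted for length and GC, from a fit in which a smooth trend over transcript length and GC content was removed from each library. That fit called 16.1% of 10613 genes (7.23% higher, 8.85% lower). In that fit 1 of the 8 enzymes, Hmgcs1, was higher, and 2, Fdft1 and Ebp, were lower. Lengths are those of the longest annotated coding transcript of a gene, whether or not adipocytes use it.

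Of the enzymes that make isoprenoid units, Hmgcs1 encodes cytosolic HMG-CoA synthase, which joins acetyl-CoA and acetoacetyl-CoA at an early step of the pathway. It stood at 261.7, 275.0, 259.0 and 263.6 CPM in the miR-690oe libraries, against 218.1, 219.3, 211.2 and 204.2 CPM in the control libraries. All 4 miR-690oe libraries lay above all 4 control libraries. The means were 264.8 ± 7.1 CPM in miR-690oe and 213.2 ± 7.0 CPM in control (SD, n = 4 each), a 1.24-fold rise with a log2 fold change of 0.31 ± 0.042 (SE, limma adjusted p = 3.81e-05). The log2 fold change adjusted for length and GC was 0.21 (limma adjusted p = 0.00271). Its transcript of 3464 nt falls in length class 6, where the median was 0.04, and 97.5% of the genes of that class had a lower fold change. Hmgcs1 lies at chr13:119690379-119708260 on the plus strand of mm10, and the antisense gene Gm48342 overlaps 462 bases of its transcript.

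Idi1 encodes isopentenyl diphosphate isomerase, which interconverts the pair of isoprenoid building blocks. It was much scarcer, at 8.42, 8.72, 8.11 and 6.89 CPM in miR-690oe, against 6.86, 7.38, 6.68 and 5.88 CPM in control. The lowest miR-690oe library lay below the highest control library. Its means were 8.03 ± 0.804 CPM in miR-690oe and 6.70 ± 0.621 CPM in control (SD, n = 4 each), with a log2 fold change of 0.24 ± 0.092 (SE, limma adjusted p = 0.0409). The call was weak: the adjusted p lay between 0.0115 and 0.138 as each library was left out in turn and passed in 2 of 8 cases, without miR-690oe replicate 4 or control replicate 2. With quantile, median-of-ratios or TMM scaling the limma adjusted p was 0.084, 0.0607 and 0.0576, and the log2 fold change adjusted for length and GC was 0.17 (limma adjusted p = 0.208). Each library held only 215 to 322 Idi1 reads in miR-690oe and 199 to 227 in control. The spread between replicates was 10.0% of the mean in miR-690oe, where counting alone gives 6.07%, and 9.27% in control, where it gives 6.93%. Idi1 (chr13:8885501-8892451, plus strand) also has near-identical copies elsewhere in the genome, Gm13502 at 100% identity over 684 bases and Gm35570 at 97.7% over 681, so its count is uncertain where reads were split among them.

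Fdft1 encodes squalene synthase, the first enzyme committed to sterols. It was at 73.8, 80.0, 78.3 and 78.5 CPM in miR-690oe, against 91.0, 85.7, 85.1 and 85.8 CPM in control. All miR-690oe libraries lay below all control libraries. Fdft1 averaged 77.6 ± 2.70 CPM in miR-690oe and 86.9 ± 2.73 CPM in control (SD, n = 4 each), 0.894 of the control level, with a log2 fold change of -0.16 ± 0.045 (SE, limma adjusted p = 0.0089). Its transcript is 3698 nt long: the median of its length class was 0.08, only 3.48% of the genes in it had a lower fold change, and the log2 fold change adjusted for length and GC was -0.21 (limma adjusted p = 0.00482).

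Fdft1 (chr14:63145150-63179578, minus strand) ends inside the end of Ctsb, the gene of the lysosomal protease cathepsin B on the opposite strand, and they share 774 bases. Ctsb was at 659.4 ± 26.1 CPM in miR-690oe and 718.0 ± 16.1 CPM in control (SD, n = 4 each), with a log2 fold change of -0.12 ± 0.042 (SE, limma adjusted p = 0.0268), and -0.26 adjusted for length and GC (limma adjusted p = 0.00112). The sources used here do not give the strand setting of the counting, so reads from the shared bases cannot be told apart. The seed match of Fdft1 shown above lies inside these shared bases. Fdft1 also has a near-identical copy, Gm6781, at 97.4% identity over 1249 bases.

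Sqle encodes squalene epoxidase, an oxygen-dependent and rate-limiting step. The gene (chr15:59315077-59331192, plus strand) was at 165.4, 181.9, 168.7 and 169.2 CPM in miR-690oe, against 166.9, 173.2, 165.8 and 165.6 CPM in control, and the groups overlapped. The fold change on the log2 scale was 0.03 ± 0.043 (SE, limma adjusted p = 0.618), with a 95% interval from -0.06 to 0.12, and adjusted for length and GC it was 0.04 (limma adjusted p = 0.509). The libraries held 5280 to 6324 Sqle reads in miR-690oe and 4936 to 5600 in control. The spread between replicates was 4.24% of the mean in miR-690oe and 2.15% in control, where counting alone gives 1.31% and 1.38%.

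Lss encodes lanosterol synthase, which folds oxidised squalene into the ring system of the sterols. It was at 120.3, 119.0, 117.8 and 118.6 CPM in miR-690oe, against 103.8, 117.1, 105.6 and 107.0 CPM in control. The groups did not overlap, and control replicate 2 came close to the lowest miR-690oe library. The means were 118.9 ± 1.02 CPM in miR-690oe and 108.4 ± 5.97 CPM in control (SD, n = 4 each), with a log2 fold change of 0.13 ± 0.046 (SE, limma adjusted p = 0.0251). Lss lies at chr10:76531588-76557138 on the plus strand, and its transcript, of 4667 nt, is the longest of the 8. The median log2 fold change of its length class was 0.14, 49.9% of that class had a lower fold change than Lss, and the log2 fold change adjusted for length and GC was 0.02 (limma adjusted p = 0.75). Without control replicate 1, 3 or 4 the limma adjusted p of Lss was 0.0862, 0.0706 and 0.0665, and with quantile, median-of-ratios or TMM scaling it was 0.0915, 0.0596 and 0.0526.

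Cyp51, the cytochrome P450 that removes a methyl group from lanosterol, was at 180.4, 216.7, 199.6 and 191.2 CPM in miR-690oe, against 193.1, 192.8, 188.9 and 192.2 CPM in control. The control libraries lay close together, and the miR-690oe libraries lay on both sides of them. The spread was 7.78% of the mean in miR-690oe and 0.998% in control, where counting alone gives 1.22% and 1.29%. On the log2 scale the fold change was 0.04 ± 0.050 (SE, limma adjusted p = 0.596; 95% interval from -0.07 to 0.14). Adjusted for length and GC the sign turned, to -0.07 (limma adjusted p = 0.283). Cyp51 (chr5:4081145-4104746, minus strand) shares 166 bases with Akap9, a scaffold protein gene on the opposite strand, whose log2 fold change was 0.60 (limma adjusted p = 1.87e-06) and, adjusted for length and GC, 0.16 (limma adjusted p = 0.0228).

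Ebp, the sterol isomerase that shifts a double bond in the ring system, had the lowest fold change of the 8. It was at 50.9, 50.9, 52.9 and 53.0 CPM in miR-690oe, against 64.0, 61.7, 61.9 and 64.3 CPM in control, and the groups were far apart. Ebp fell to 51.9 ± 1.18 CPM in miR-690oe, against 63.0 ± 1.36 CPM in control (SD, n = 4 each), 0.826 of the control level, with a log2 fold change of -0.28 ± 0.045 (SE, limma adjusted p = 0.000193). Its replicate spread, 2.27% in miR-690oe and 2.16% in control, was no more than counting alone gives, 2.38% and 2.26%. Ebp (chrX:8185329-8193512, minus strand) has the shortest transcript of the 8, at 1743 nt, and 5.85% of the genes of its length class had a lower fold change. The log2 fold change adjusted for length and GC was -0.18 (limma adjusted p = 0.00673).

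Dhcr7, which carries out the final reduction to cholesterol (chr7:143823145-143848410, plus strand), was at 79.5, 88.4, 79.6 and 80.6 CPM in miR-690oe, against 88.6, 88.6, 88.3 and 83.6 CPM in control. In miR-690oe replicate 2 was the highest and level with the control libraries, and in control replicate 4 was the lowest. The log2 fold change of -0.09 ± 0.048 (SE, limma adjusted p = 0.137) had a 95% interval from -0.19 to 0.01, and adjusted for length and GC it was -0.06 (limma adjusted p = 0.348). Without miR-690oe replicate 2 it was -0.13 (limma adjusted p = 0.043), and with all libraries after quantile normalization -0.15 (limma adjusted p = 0.0209). Fdft1 and Dhcr7, the enzymes with a seed match, had log2 fold changes of -0.16 and -0.09, and the other 6 lay between -0.28 and 0.31. Nadk, at 203.8 CPM in miR-690oe and 223.7 CPM in control, had -0.13 ± 0.042 (SE, limma adjusted p = 0.0174), with 0.0695 without control replicate 2 and 0.0612 without control replicate 4. Single genes were searched for a match only among the enzymes, Nadk and the pathway, sterol control and cell type marker lists. The other genes of these lists with a match had positive values. They were 0.19 for Lbr (limma adjusted p = 0.00711), 0.11 for Sc5d (limma adjusted p = 0.149) and 0.25 for Pdgfra (limma adjusted p = 0.0145). Adjusted for length and GC these were 0.10, -0.08 and -0.003.

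**Figure D2:**
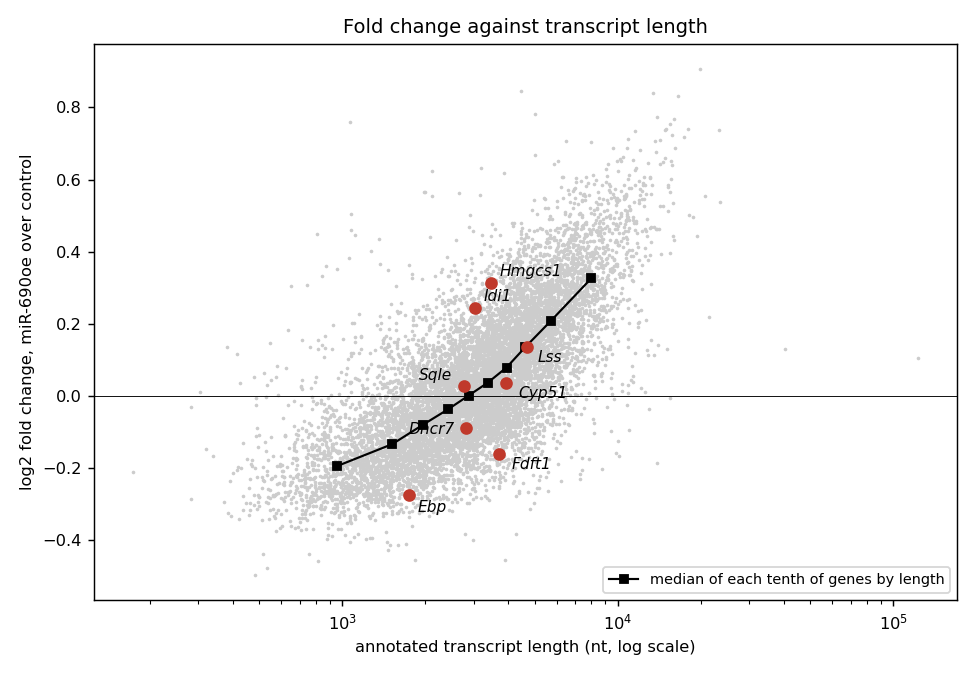
Log2 fold change, miR-690oe over control (y axis), against annotated transcript length in nt (x axis, log scale) for every gene with a length (grey) and the 8 enzymes (red), with the median of each length class (black squares). Hmgcs1 and Idi1 stand above the medians at their length, Fdft1 and Ebp below, and Lss lies on them.

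The calls for Hmgcs1, Fdft1 and Ebp passed the threshold of 0.05 in each of 21 alternative settings, with log2 fold changes from 0.21 to 0.33 for Hmgcs1, from -0.23 to -0.14 for Fdft1 and from -0.33 to -0.18 for Ebp. Idi1 passed in 9 of the 21, Lss in 12, Dhcr7 in 2, and Sqle and Cyp51 in 0. Of all genes, 44.6% were called with quantile normalization and 39.5% with the replicate number as a block. In the authors' deposited table, which rests on the same libraries, the false discovery rate was under 0.05 for the same 5 genes. For Lss it was only just under, at 0.0492, and for Idi1 it was 0.0344. That table lists a log2 fold change of 0.30 for Hmgcs1, 0.25 for Idi1, 0.12 for Lss, -0.18 for Fdft1 and -0.30 for Ebp.

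Of 14 other genes of the pathway, all measured, 2 rose, 4 fell and 8 did not pass, with a median log2 fold change of -0.08, and the share called lay near the 43.4% of all genes. Hsd17b7, a late sterol ketoreductase, had a log2 fold change at 0.30 (limma adjusted p = 0.00116), and Lbr, a sterol reductase that is also the lamin B receptor, 0.19 (limma adjusted p = 0.00711). The genes that fell all act between mevalonate and farnesyl diphosphate. They were the kinase genes Mvk (-0.23, limma adjusted p = 0.00208) and Pmvk (-0.18, limma adjusted p = 0.0122), the decarboxylase gene Mvd (-0.18, limma adjusted p = 0.0164) and the farnesyl diphosphate synthase gene Fdps (-0.26, limma adjusted p = 0.00109).

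As measured, Idi1, which acts between Mvd and Fdps, thus had a higher level where the genes of the steps before and after it fell. Adjusted for length and GC none of these calls held, with limma adjusted p = 0.208 for Idi1, 0.498 for Mvd and 0.0994 for Fdps. The not-passing genes lay between -0.16 for Tm7sf2 and 0.11 for Sc5d, both late sterol enzymes. The direction also went with length: the 2 genes that rose have transcripts of 3510 to 4612 nt and the 4 that fell have 1194 to 1756 nt. After adjustment for length and GC, 0 of the 14 passed by limma in either direction, and at an unadjusted p under 0.05 there were 1 higher and 3 lower. Hsd17b7 then had 0.13 on the log2 scale (limma adjusted p = 0.138) and Fdps -0.11 (limma adjusted p = 0.0994). Without control replicate 2 the count of pathway genes lower was 2, with limma adjusted p = 0.055 for Pmvk and 0.0755 for Mvd.

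**Figure D3:**
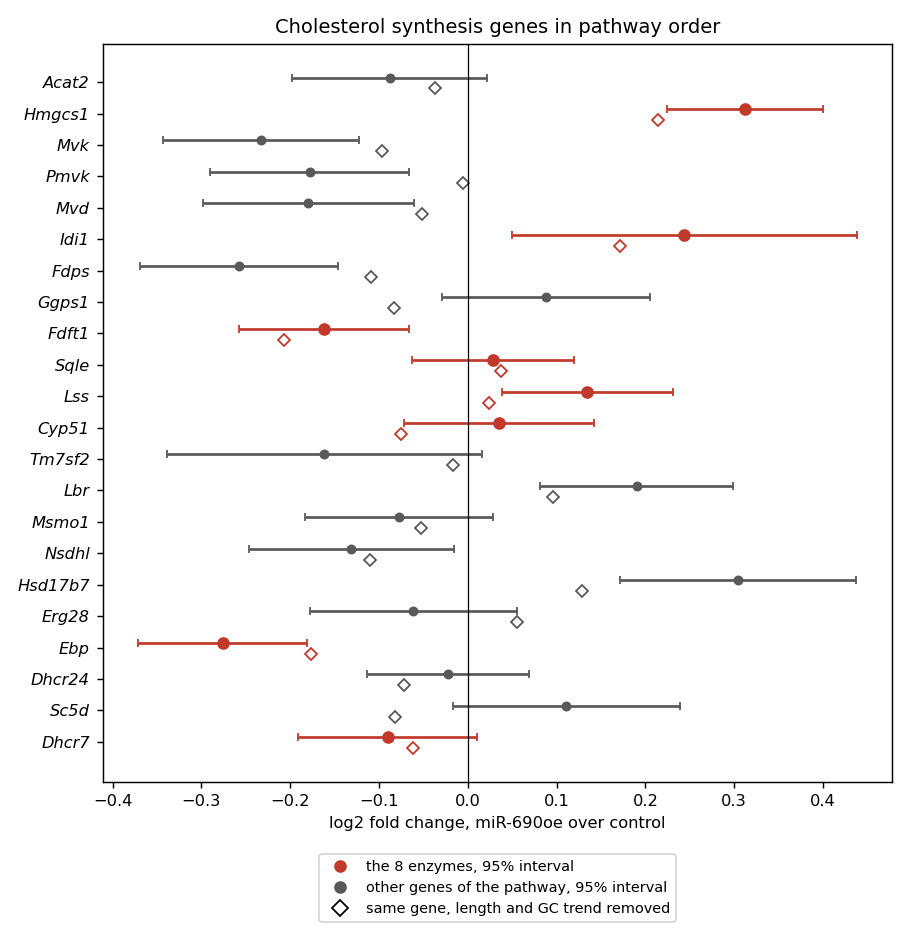
Log2 fold change, miR-690oe over control (x axis), for the 8 enzymes (red) and 14 other genes of cholesterol synthesis (grey) in pathway order from top to bottom, with 95% intervals from limma, and after adjustment for length and GC (open diamonds). Hmgcs1 at 0.31 and Ebp at -0.28 mark the ends for the 8 enzymes, and most diamonds lie closer to 0 than the points.

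Ratios within a library show how far the enzymes moved against each other, as a description with no test. None of these ratios is adjusted for length. The log2 ratio of Hmgcs1 to Ebp was 2.35 ± 0.063 in miR-690oe and 1.76 ± 0.067 in control (SD, n = 4 each), and the ranges were apart. This had to follow, since all miR-690oe libraries lay above control for Hmgcs1 and below it for Ebp. The log2 ratio of Fdft1 to Sqle, consecutive steps, was -1.14 ± 0.039 in miR-690oe and -0.95 ± 0.058 in control, also apart. By contrast, Sqle to Cyp51 was -0.20 ± 0.060 in miR-690oe and -0.19 ± 0.028 in control, with overlapping ranges.

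Levels of different genes were compared per kb of transcript. Hmgcs1 was highest of the 8, at 76.5 ± 2.04 CPM per kb in miR-690oe and 61.6 ± 2.02 in control, and Idi1 lowest, at 2.65 ± 0.266 in miR-690oe and 2.22 ± 0.205 in control (SD, n = 4 each). In control, Sqle (60.9) followed Hmgcs1 within overlapping ranges, then came Cyp51 (48.8), Ebp (35.4 to 36.9) and Dhcr7 (29.7 to 31.5), and Fdft1 (23.5) and Lss (23.2) overlapped. In miR-690oe, Hmgcs1 (74.8 to 79.4) stood apart from Sqle (60.0 to 66.0), and Ebp (29.2 to 30.4) overlapped Dhcr7 (28.2 to 31.4). Lss (25.2 to 25.8) was then above Fdft1 (19.9 to 21.6) with no overlap. Among these 22 genes of the pathway in control, Hmgcs1 ranked 4, behind Fdps, Msmo1 and Acat2, and Idi1 ranked 22. These levels take the longest annotated coding transcript of each gene. For Idi1 the annotated coding transcripts run from 581 to 3027 nt, so its level per kb and its rank depend on that choice. Its count is also uncertain because of its copies.

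**Figure D4:**
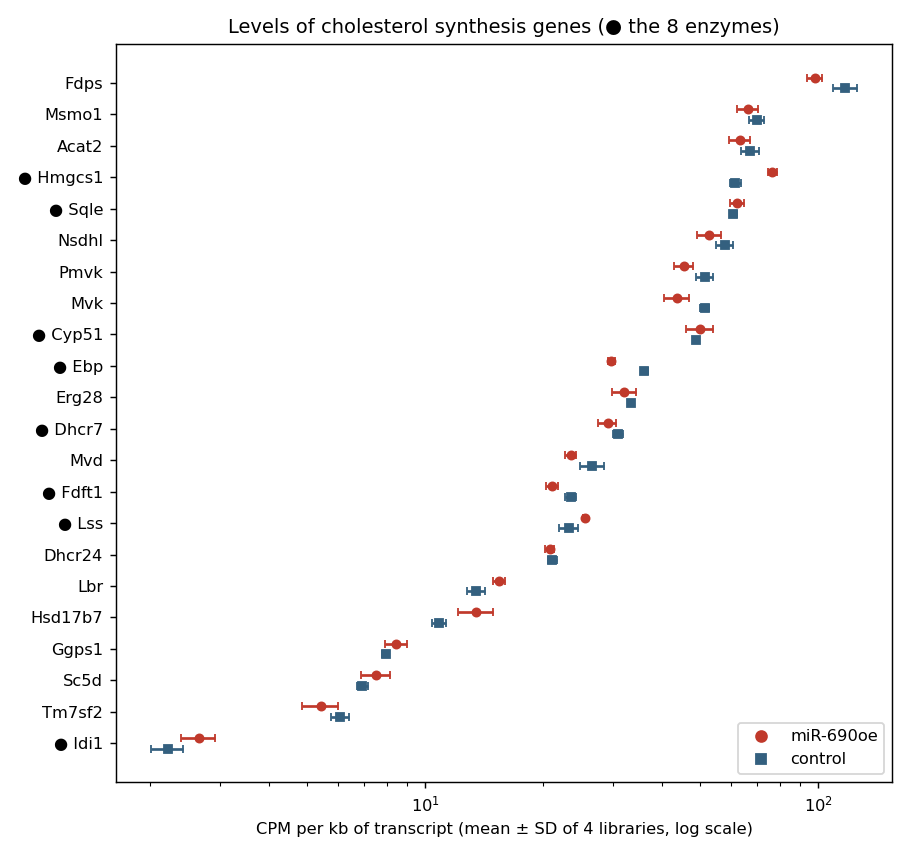
Mean level ± SD in CPM per kb of annotated transcript (x axis, log scale) of 22 cholesterol synthesis genes in 4 miR-690oe libraries (red circles) and 4 control libraries (blue squares), ordered by the control mean, with the 8 enzymes marked by a black dot. Idi1 lies lowest, at 2.65 in miR-690oe and 2.22 in control, with its longest annotated coding transcript taken as its length. Hmgcs1 in miR-690oe is exceeded by Fdps alone.

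The 8 enzymes also varied among libraries of a group. miR-690oe replicate 2 was the highest of its group for 6 of the 8 enzymes, against 23.2% of all genes, but for 1 of the 14 other pathway genes. After adjustment for length and GC it was highest for 5 of the 8 and for 5 of the 14, against 25.8% of all genes. Its deviation from the group mean of log2(CPM + 0.5) was 0.14 for Cyp51, 0.12 for Idi1, 0.11 for Dhcr7 and 0.09 for Sqle, and -0.03 for Ebp. Control replicate 4 was the lowest of its group for 4 of the 8 and for 6 of the 14 other pathway genes, against 21% of all genes. Cell type markers moved with miR-690oe replicate 2: it was the highest of its group for 9 of 9 listed adipocyte markers, with Lpl at 3527 CPM against 2474 to 2925 CPM in the other miR-690oe libraries, and the lowest for 6 of 7 preadipocyte markers, with Col1a1 at 1046 CPM against 1234 to 1582 CPM. Other libraries shifted too. Control replicate 2 was highest of its group for 8 of 9 adipocyte markers and lowest for 5 of 7 preadipocyte markers. Among the 8 enzymes it was highest for 4, and for 7 of the 14, against 23.6% of all genes. miR-690oe replicate 1 was lowest for 8 of 9 adipocyte markers and highest for 6 of 7 preadipocyte markers. It was lowest for 4 of the 8 enzymes and 9 of the 14, against 30.9% of all genes. The markers' part in the enzymes' levels was not tested. No label gives a batch or date that would separate these libraries.

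**Figure D5:**
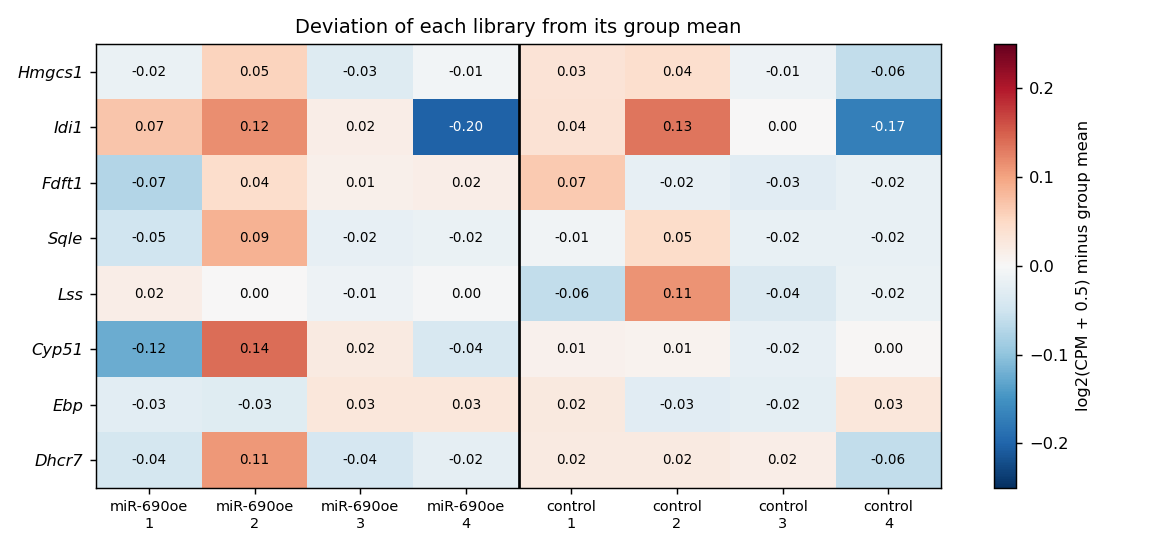
Deviation of each library from its group mean of log2(CPM + 0.5) (colour and number) for the 8 enzymes (rows) in the miR-690oe libraries (left) and control libraries (right). miR-690oe replicate 2 is above its group mean by 0.14 for Cyp51 and 0.11 for Dhcr7, and Idi1 has the widest spread.

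Likeness was measured as the root mean square difference of log2(CPM + 0.5) over the 8 libraries, each gene centred on its own mean, among 10169 genes with a mean of at least 5 CPM. The nearest genes to Hmgcs1 were Fam214a (0.027), Mgea5 (0.029) and Ahctf1 (0.029). For Sqle the nearest was Ndufs1 (0.012) and the nearest pathway gene Cyp51, at rank 135. For Ebp the nearest was Tcn2 (0.017) and the nearest pathway gene Mvk, at rank 384. For Fdft1 the nearest was Trub2 (0.019) and the nearest pathway gene Dhcr7, at rank 717. Cyp51 was nearest to Mrps2, with Sqle at rank 41, the closest rank of these. Idi1 was nearest to Cul4b, Lss to Ficd and Dhcr7 to Fam220a, with the nearest pathway genes Hmgcs1 at rank 173, Sqle at rank 661 and Acat2 at rank 343. None of the 8 had another of these pathway genes among its 3 nearest. With so few pathway genes among 10169, this gives no measure of whether the enzymes are controlled together. The difference also runs over both groups, so it takes in the fold change and its trend over length.

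Because SREBP-2 binds these genes near their starts with the factors NF-Y and Sp1, the start regions of the genes at both ends of the range, Hmgcs1 and Ebp, were set side by side. RefSeq windows around the start (GRCm38.p6) were found for 6 of the 8 enzymes. Capitals mark matches on either strand to TCACNCCAC, resembling a sterol response element, to CCAAT, the NF-Y motif, and to GGGCGG, the Sp1 motif, which did not overlap in these windows. The windows are chr13:119690101-119690400 on the plus strand for Hmgcs1 and chrX:8193463-8193762 on the minus strand for Ebp.
Hmgcs1: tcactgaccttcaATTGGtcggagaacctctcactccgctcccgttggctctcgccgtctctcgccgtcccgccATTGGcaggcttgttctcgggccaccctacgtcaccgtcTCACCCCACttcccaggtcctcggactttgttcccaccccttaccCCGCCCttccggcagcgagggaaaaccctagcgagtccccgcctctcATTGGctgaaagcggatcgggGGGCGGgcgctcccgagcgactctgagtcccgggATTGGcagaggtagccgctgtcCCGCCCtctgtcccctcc
Ebp: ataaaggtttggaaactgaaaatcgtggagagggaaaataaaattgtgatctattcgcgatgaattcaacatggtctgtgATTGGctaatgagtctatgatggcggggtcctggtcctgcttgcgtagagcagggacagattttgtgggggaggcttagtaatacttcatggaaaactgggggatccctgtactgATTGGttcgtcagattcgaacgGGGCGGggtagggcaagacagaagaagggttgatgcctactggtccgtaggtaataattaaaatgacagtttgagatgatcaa
The Hmgcs1 window held 1 match to TCACNCCAC, 137 bases before the start, with 4 to CCAAT and 3 to GGGCGG. The Ebp window held 0, 2 and 1. The windows of Idi1 and Lss, which rose, and those of Cyp51 and Dhcr7 also held 0 matches to TCACNCCAC. Of 32851 promoter windows of this length, 1.24% held TCACNCCAC, 37.4% CCAAT and 35.7% GGGCGG. These matches are descriptions of letters, not of binding.

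The libraries held 31211349 to 38235522 reads in miR-690oe and 29773446 to 33816227 reads in control over the listed genes. Both adipocyte and preadipocyte markers were abundant: 9 of 10 adipocyte markers were listed, with a summed level of 9437 to 12553 CPM in miR-690oe and 11057 to 12157 CPM in control, and 7 of 8 preadipocyte and fibroblast markers, with 9099 to 11849 CPM in miR-690oe and 9795 to 11001 CPM in control. Of the adipocyte markers 2 of 9 were lower (Cidec and Cfd) and 0 higher, and of the preadipocyte markers 2 of 7 were higher (Pdgfra and Pdgfrb) and 1 lower (Vim), against 26.0% higher and 17.4% lower of all genes. Adjusted for length and GC these 5 had limma adjusted p = 0.544 for Cidec, 0.92 for Cfd, 0.979 for Pdgfra, 0.582 for Pdgfrb and 0.313 for Vim, and Dlk1 was lower, at -0.22 (limma adjusted p = 0.0238). The 3 listed macrophage markers of 6 summed to 21.4 to 24.1 CPM in miR-690oe and 24.1 to 27.9 CPM in control, with 2 of the 3 lower (Cd14 and Lyz2). Adjusted for length and GC these had limma adjusted p = 0.46 for Cd14 and 0.365 for Lyz2. A further 3 endothelial markers were not analysed here. The part of cell type makeup in the results above was not tested.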

How the data were processed

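RNA-seq of 8 libraries was analysed. Per the submitters' processing notes, Trimmomatic 0.38, edgeR 3.20.9 and mm10 were used, with no roles given. The sources used here do not name the aligner, the counter or the strand setting. The authors' deposited table is named RPKM, but its columns each sum to 1000000, so the values were taken as CPM and tested as the design planned for RPKM. Per the file headers, the deposited table also holds a log2 fold change, a likelihood ratio (a score), p-values and false discovery rates. Whole multiples of a step per column gave the reads per library, with 100% of values whole within 0.1 read, used for depth only.

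Genes with at least 0.5 CPM in 4 of 8 libraries (10658) were tested on log2(CPM + 0.5) by limma 3.58.1 under R 4.3.3 (eBayes with trend, two-sided, Benjamini-Hochberg, 0.05). Lengths and 3' UTRs came from GENCODE M21 for 10618 genes (99.6%), 143 through an older symbol. Trends were splines with 4 degrees of freedom per library. Scripts were tested on simulated data. Named genes are the 8 enzymes, the listed genes of the pathway and sterol control lists, apart from some genes that are not reported here, Nadk, overlapping genes and the nearest genes by likeness. The genes and lists were chosen with earlier results of these data known. Alternatives covered pseudocount, filter, scaling, variance model, library weights, replicate block, threshold, length and GC trends, and leaving out each library.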

Additional observations from a re-analysis of the deposited data

Results flagged for a closer look

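In 4 of 18 groups of 4 libraries examined (the 8 enzymes and Nadk, in each condition), the highest or lowest library stood far from the others for its group's range, which chance does in about 1 in 20 groups. Dhcr7 was flagged in both conditions: miR-690oe replicate 2 stood at 88.3856 CPM with the next library at 80.6117, and control replicate 4 at 83.5989 CPM with the next at 88.3002. Fdft1 in control replicate 1 stood at 90.959 CPM with the next at 85.7872. Sqle in control replicate 2 stood at 173.222 CPM with the next at 166.851.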

How the results depend on the processing

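Counts of enzymes lower, 2 as reported, stayed within 1.5 times in every setting run. The count of enzymes higher, 3 as reported, was 1 with quantile normalization, median-of-ratios scaling, TMM scaling, the threshold of 0.01, the length trend removed, the length and GC trend removed, and a replicate block with the length and GC trend removed, and 1 to 3 as each library was left out. The count of pathway genes higher, 2 as reported, was 0 with the length and GC trend removed, 0 with the length trend removed and 0 with the replicate block on top of both trends. The count of pathway genes lower was 2 at the threshold of 0.01, 0 with the length and GC trend removed, 1 with the length trend removed and 0 with the replicate block added, and 2 to 5 as each library was left out. Genes called numbered 3047 at 0.01, 1706 after both trends were removed, 1858 with the length trend removed, 1203 with the replicate block added, and 3756 to 4811 as each library was left out. The median of the 8 enzymes was -0.030 with the length trend removed. It was -0.019 with the length and GC trend removed, with or without the replicate block, and -0.006 without miR-690oe replicate 2. The spread of this median between libraries of a group was 0.056 (SD), so its sign is not settled. The cause of these changes was not tested.

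The sign turned for genes that were not called, and for 2 called genes, Lss and Srebf2. With the length trend removed the log2 fold change was -0.0075 for Lss, -0.053 for Cyp51, -0.024 for Ggps1, -0.039 for Sc5d, 0.088 for Erg28, -0.055 for Srebf2 and -0.10 for Scap. With the length and GC trend removed, and equally with the replicate block added, it was -0.075 for Cyp51, -0.083 for Ggps1, -0.082 for Sc5d, 0.055 for Erg28, -0.0032 for Srebf2 and -0.051 for Scap. Scap had -0.034 with quantile normalization, -0.012 with median-of-ratios scaling and -0.0079 with TMM. Leaving out a library gave -0.00064 to 0.045 for Sqle and -0.011 to 0.077 for Cyp51, both lowest without miR-690oe replicate 2, -0.011 to 0.040 for Scap, -0.043 to 0.034 for Srebf1 and -0.091 to 0.038 for Mylip.

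Whether the replicate numbers pair the libraries is not known. Deviations of same-numbered libraries from their group means had correlations of -0.301, 0.312, -0.100 and -0.327. Those of differently numbered libraries lay between -0.280 and 0.327, so the correlations do not settle it. With the replicate block alone 4209 genes passed and 3 enzymes were higher and 2 lower, as without it. The block with both trends removed was chosen after seeing the data. Tests of whole reads with edgeR and DESeq2 were planned and not run, since the files hold CPM. Idi1, at 199 to 322 reads per library, is the enzyme most limited by depth, and intervals and spreads from reads cover counting error only.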

Other observations

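The genes that control and move sterols were also measured, 12 of a list of 13. Of these, 4 rose, 2 fell and 6 did not pass, against 26.0% higher and 17.4% lower of all genes, with a median log2 fold change of 0.05. Abca1, the cholesterol exporter of the plasma membrane, rose to 159.2 CPM in miR-690oe, against 100.8 CPM in control (log2 fold change 0.65 ± 0.056 SE, limma adjusted p = 1.66e-06), and after removal of the length and GC trend had 0.29 (limma adjusted p = 0.000593). Stard4, a sterol carrier, had 0.33 (limma adjusted p = 0.0007), Mbtps2, a protease that frees SREBPs, 0.37 (limma adjusted p = 0.000287), and Srebf2, the gene of SREBP-2, 0.11 (limma adjusted p = 0.0397). With the trend removed Stard4 had 0.13 (limma adjusted p = 0.101) and Srebf2 -0.003 (limma adjusted p = 0.966), and 2 genes, Mbtps2 and Abca1, were higher and 1, Mbtps1, lower.

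The liver X receptor genes fell, Nr1h3 with -0.23 (limma adjusted p = 0.0249) and Nr1h2 with -0.16 (limma adjusted p = 0.03), and with the trend removed they had -0.12 (limma adjusted p = 0.278) and -0.05 (limma adjusted p = 0.489). Insig1, which holds SREBP in place and is itself raised by it, had 0.10 (limma adjusted p = 0.144), and with the trend removed 0.10 (limma adjusted p = 0.142). It passed in 1 of 21 alternative settings, without miR-690oe replicate 1, with 0.13 (limma adjusted p = 0.044). Without miR-690oe replicate 2 it had 0.05 (limma adjusted p = 0.412). The calls of Srebf2, Nr1h2 and Nr1h3 were weak. The limma adjusted p was over 0.05 for Srebf2 without miR-690oe replicate 1 or 3 or control replicate 2, 3 or 4 (up to 0.112), for Nr1h2 without miR-690oe replicate 2 or 3 or control replicate 2 or 3 (up to 0.0991), and for Nr1h3 without miR-690oe replicate 1 or 3 or control replicate 2 (up to 0.102). With all libraries the limma adjusted p of Srebf2 was 0.119 after quantile normalization, 0.106 with median-of-ratios scaling, 0.0891 with TMM scaling, 0.0637 without the variance trend and 0.0619 with the replicate block, that of Nr1h2 0.0531 with the replicate block, and that of Nr1h3 0.0526 without the variance trend.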
